A study of Mus musculus with 14 samples.

Results

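Methylated DNA was examined at 10 mouse genes that work in germ cells and belong to a class known to be silenced by promoter methylation in other cells: Dazl, Ddx4, Mael, Tdrd1, Stk31, Sycp1, Sycp3, Hormad1, Brdt and Slc25a31. All 10 were found among 22225 protein-coding genes of the NCBI build 37 (mm9) annotation, and a peak was assigned to a promoter when it overlapped the 1 kb on either side of the gene's 5′ end by at least 1 bp, and to the gene body when it lay further inside the gene. The genes were taken by name and not by their peaks. The files hold peaks of captured methylated DNA and no RNA, so whether the genes were silent could not be examined.

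In MBD-seq, fragments with several methylated CpGs are held by the binding domain of a methyl-CpG protein and then sequenced, and this was done for 14 samples. These were 4 Aid+/+ and 4 Aid-/- induced pluripotent stem (iPS) cell clones, 3 embryonic stem (ES) cell lines and 3 Aid+/+ mouse embryonic fibroblast (MEF) cultures. The study asked whether the methylation of iPS cells differs between the 2 genotypes. The Aid+/+ clones were 967B2, 967B4, 979B1 and 979B3 and the Aid-/- clones 979F1, 979F3, 981E1 and 981E4, numbered 1 to 4 in that order. Every iPS clone was male, of mixed C57BL6, DBA and 129S4 background, carried a Nanog-GFP reporter, had been made from MEFs with retroviral copies of the reprogramming factors (Klf4, Sox2 and Oct3/4, in some cases c-Myc too), and was taken at passage 6 from gelatin-coated dishes with puromycin and LIF. The ES lines, also cultured on gelatin, were RF8 (129SV, male, passage 19), MG1.19 (129Ola, male) and B6 ES (C57BL6). Each ES sample thus differed from the others in strain, and no passage was given for MG1.19 or B6 ES. The Aid+/+ MEFs were taken at passage 3. Each iPS sample is 1 clone and each ES sample 1 line, and p-values below measure the spread between such samples.

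Germline genes of this kind are active in primordial germ cells, spermatogonia or spermatocytes and are shut in somatic cells. Many of their promoters are rich in CpG, which is unusual for methylated promoters, since CpG islands of most genes stay free of methylation in every tissue. Methylation is laid on them around implantation and is removed again in germ cells, and a repressive complex that recognises the E-box CACGTG and E2F sites is known to mark a subset of them in ES cells.

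The sequence just upstream of the 10 genes shared the E-box. CACGTG, which reads the same on both strands, was found within 250 bases upstream of the 5′ end in 9 of 10 genes (90.0%), all but Dazl, against 6.53% of all promoters and 9.23% of the CpG-rich ones. The E2F motif GCGGGA, searched on both strands, was found in Ddx4, Sycp3, Mael and Hormad1 (40.0%) against 20.4% of all promoters and 36.6% of the CpG-rich ones. A match is a description of the letters and not a binding site. By CpG content 8 promoters were CpG-rich, holding a 500 bp stretch of at least 55% GC with an observed to expected CpG ratio of at least 0.75, and Sycp3 and Brdt were intermediate. A median of 17 CpGs lay in the 250 bases, against 8 over all genes and 19 over CpG-rich ones. Sequences of 4 genes are printed from the reference genome (build 37), on the strand of the gene and ending at the base before the 5′ end, with each CpG in capitals, so that an E-box appears as caCGtg. They were chosen as the promoter with peaks in every sample and no E-box (Dazl, chr17:50432925-50433174, minus strand, 23 CpGs), the one with the most CpGs and fewest peaks in iPS cells (Ddx4, chr13:113442519-113442768, minus strand, 31 CpGs), an intermediate one (Sycp3, chr10:87922064-87922313, plus strand, 10 CpGs) and one with a peak in every iPS clone (Slc25a31, chr3:40512527-40512776, plus strand, 17 CpGs).
Dazl: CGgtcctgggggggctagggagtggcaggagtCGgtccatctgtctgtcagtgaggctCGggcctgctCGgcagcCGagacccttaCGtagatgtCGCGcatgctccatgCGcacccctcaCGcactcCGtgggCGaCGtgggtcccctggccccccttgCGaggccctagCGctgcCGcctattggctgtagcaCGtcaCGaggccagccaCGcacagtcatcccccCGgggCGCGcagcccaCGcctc
Ddx4: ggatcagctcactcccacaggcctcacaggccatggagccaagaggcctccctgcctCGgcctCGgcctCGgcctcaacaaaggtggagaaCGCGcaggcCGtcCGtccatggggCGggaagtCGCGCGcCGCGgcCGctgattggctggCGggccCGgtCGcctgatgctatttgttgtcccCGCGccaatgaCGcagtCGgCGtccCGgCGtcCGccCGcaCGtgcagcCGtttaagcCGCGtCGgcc
Sycp3: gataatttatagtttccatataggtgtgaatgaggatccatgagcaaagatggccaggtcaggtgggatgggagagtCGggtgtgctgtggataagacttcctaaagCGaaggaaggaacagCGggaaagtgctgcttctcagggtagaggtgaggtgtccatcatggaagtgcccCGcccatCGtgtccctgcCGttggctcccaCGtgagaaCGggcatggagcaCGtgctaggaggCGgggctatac
Slc25a31: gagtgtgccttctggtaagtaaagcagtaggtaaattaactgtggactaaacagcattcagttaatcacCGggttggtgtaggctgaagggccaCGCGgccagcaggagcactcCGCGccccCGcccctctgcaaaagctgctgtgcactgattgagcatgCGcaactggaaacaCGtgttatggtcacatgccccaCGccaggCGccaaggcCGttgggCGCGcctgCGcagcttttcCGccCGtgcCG

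Each sample gave 20.1 to 36.9 M mapped tags (M for 1000000), of which 6.65 to 19.6 M were left after repeats of a position were limited to 2, and 33694 to 110943 peaks. The filtered tags ran from 6.65 to 15.9 M in iPS clones, from 10.2 to 15.5 M in ES cells and from 17.5 to 19.6 M in MEFs. MEFs were thus the deepest group in filtered tags, with the fewest peaks apart from MG1.19. Before that limit the Aid+/+ clones had more, with a mean of 34.3 M mapped tags against 28.5 M in MEFs. MG1.19 ES cells stood apart with 33694 peaks and promoter peaks at 2.63% of all genes, against 13.9% in B6 ES cells. By the prefix of the run name and the MACS version, the file headers fall into 4 groups, called processing runs here; what the prefixes mean is not stated. The first held Aid+/+ clone 1 and Aid-/- clones 1, 2 and 4, the second Aid+/+ clones 2 to 4, the third Aid-/- clone 3, the ES lines and MEF culture 1, and the last MEF cultures 2 and 3. CpG-rich promoters with a peak made up 7.32% to 12% in the first run, 2.44% to 3.74% in the second, 1.2% to 7.7% in the third and 4.77% and 4.42% in the last. No run held both Aid+/+ iPS clones and MEFs or ES cells, so run and cell type cannot be told apart in those comparisons. Of the markers listed for the cell types, Zfp42 and Nanog, genes of pluripotent cells, had promoter peaks in 3 and 2 of 3 MEF cultures and in no iPS or ES sample, and Col1a1, a fibroblast collagen gene, had them in 8 of 8 iPS clones, in B6 ES cells and in no MEF. Pou5f1 (Oct3/4) had promoter peaks in 8 of 8 iPS clones, with 39 to 139 tags, and in none of the other 6 samples. The clones carry retroviral copies of its coding sequence, whose reads cannot be told apart from those of the gene here. Dppa4, Tdgf1, Col1a2, Thy1, Twist2 and Prrx1 complete the marker lists, and 4 of the 5 fibroblast markers and 1 of the 5 pluripotent ones had no promoter peak in any sample.

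All 10 promoters had a peak in each of the 3 MEF cultures. In Aid+/+ iPS cells 4 had one in every clone (Dazl, Sycp1, Tdrd1 and Slc25a31), in Aid-/- iPS cells 8 (all but Ddx4 and Tdrd1) and in ES cells 2 (Dazl and Tdrd1). Over all genes a promoter peak in every sample was found at 5.88% (Aid+/+ clones), 5.94% (Aid-/- clones), 1.84% (ES lines) and 4.53% (MEFs), and over the 9678 CpG-rich genes at 1.69%, 2.1%, 0.527% and 3.07%. By sample, the Aid+/+ clones had peaks at 10, 4, 7 and 9 of the promoters, the Aid-/- clones at 9, 10, 8 and 10, and RF8, MG1.19 and B6 ES cells at 9, 2 and 10. Clone 2 of the Aid+/+ cells and MG1.19 were thus the low samples, and each promoter had a peak in at least 1 sample of every group. Without Aid+/+ clone 2 the count in every Aid+/+ clone was 7, and without MG1.19 the count in every ES line was 9. Kept to the same number of most significant peaks in every sample, 33082, the counts were 1, 4, 1 and 10. Counts in these alternative settings were made for the 10 genes only.

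**Figure D1:**
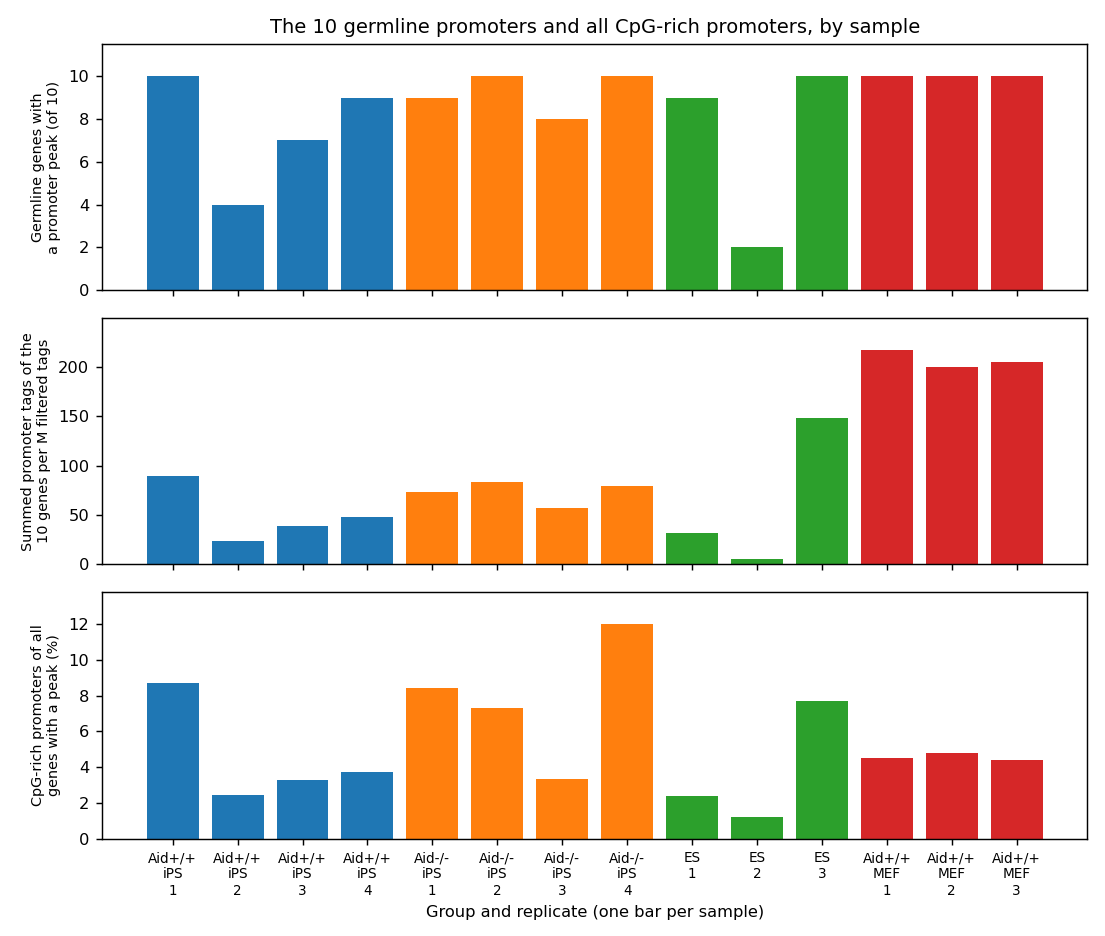
Number of the 10 germline promoters with a peak, their summed normalised promoter tags (tags per M filtered tags) and the percent of CpG-rich promoters with a peak, in each of the 14 samples along the x axis, with colours for the groups. The 3 MEF cultures hold 10 of 10 promoters and 200 to 217 normalised tags, above each iPS clone (24.0 to 89.5) and each ES line (4.98 to 148).

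Summed over the 10 promoters, the normalised tags (tags per M filtered tags) were 89.5, 24.0, 39.0 and 47.6 in the Aid+/+ clones, 72.9, 83.1, 56.7 and 79.3 in the Aid-/- clones, 31.5, 4.98 and 148 in RF8, MG1.19 and B6 ES cells and 217, 200 and 205 in MEFs. The MEF cultures were therefore close together and above every other sample. B6 ES cells came next, and the ES lines spanned the widest range of the groups.

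A first set of 5 genes of the list act on germline RNA or are tied to the piRNA pathway that silences transposons. Dazl, an RNA-binding protein that licenses germ cells for meiosis, was the only member with a promoter peak in all 14 samples. Its promoter held 538, 165, 227 and 138 tags in the Aid+/+ clones, 266, 260, 142 and 323 in the Aid-/- clones, 108, 56 and 481 in RF8, MG1.19 and B6 ES cells, and 718, 567 and 641 in MEFs. The MEF values lay above every other sample, and Aid+/+ clone 1 came closest to them. In normalised tags the order changed, with 33.8 in Aid+/+ clone 1 against 32.4 to 36.6 in MEFs, so those groups overlapped. Ddx4 (vasa), a DEAD-box RNA helicase and a standard germ cell marker, was at the other end. Its promoter had a peak in Aid+/+ clone 1 (50 tags), Aid-/- clones 2 and 4 (13 and 34 tags) and B6 ES cells (98 tags), and 369, 312 and 374 tags in MEFs. The other 7 samples had no peak there.

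Mael, a piRNA factor of the germ granule, had promoter tags of 79 and 22 in Aid+/+ clones 1 and 4 and none in clones 2 and 3. The Aid-/- clones had 36, 54, 21 and 33, RF8 and B6 ES cells 15 and 146, and MEFs 371, 300 and 339. Stk31, a Tudor-domain kinase-like protein of the testis, had 54, 15 and 25 in Aid+/+ clones 1, 3 and 4, and 35, 40, 12 and 57 in the Aid-/- clones. In RF8 and B6 ES cells it had 19 and 177 and in MEFs 522, 371 and 475. For both genes MG1.19 had no peak and each MEF culture stood above all 11 stem cell samples.

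Tdrd1, a Tudor-domain scaffold for the Piwi proteins, held 73, 37, 32 and 28 tags in the Aid+/+ clones, 60, 41 and 35 in Aid-/- clones 1, 2 and 4, 24, 18 and 105 in RF8, MG1.19 and B6 ES cells and 176, 151 and 118 in MEFs. These tags did not come from one place. In MEFs the peaks (chr19:56900383-56901301 when merged) ran from 316 bp before to 602 bp after the 5′ end with summits at 23 to 43 bp, in the untranslated part of the first exon. In the 4 Aid+/+ clones the peak with the most tags had its summit at 1005 to 1056 bp, in an intron, and ran from 726 bp at the earliest to 1513 bp at the latest, so it did not reach the 5′ end. A peak over the 5′ end itself was present in 1 of 4 Aid+/+ clones, 3 of 4 Aid-/- clones, 1 of 3 ES lines and 3 of 3 MEF cultures. The count of Tdrd1 among the promoters with a peak in every Aid+/+ clone and every ES line thus rests on a neighbouring peak, and in a window of 0.5 kb those counts were 3 and 1.

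Another 3 genes build the axis or the synaptonemal complex that joins homologous chromosomes in meiosis. Sycp1, its transverse filament, held 235, 30, 83 and 92 tags in the Aid+/+ clones and 112, 107, 65 and 132 in the Aid-/- clones. RF8 and B6 ES cells had 42 and 389, MG1.19 had no peak, and MEFs had 779, 691 and 698. Each MEF culture was above every stem cell sample, and the 2 genotypes overlapped. Sycp3, a component of the lateral element, had 57 and 16 in Aid+/+ clones 1 and 4, 38, 67, 19 and 58 in the Aid-/- clones, 21 and 224 in RF8 and B6 ES cells and 270, 226 and 215 in MEFs. B6 ES cells reached into the range of the MEFs there. Hormad1, an axis protein that marks unpaired chromosomes, had 120, 37 and 37 in Aid+/+ clones 1, 3 and 4 and 50, 74, 43 and 59 in the Aid-/- clones. It had 37 and 273 in RF8 and B6 ES cells and 323, 292 and 276 in MEFs, so that B6 ES cells were just under the lowest MEF.

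The last pair belong to neither of these sets. Brdt, a bromodomain protein that reads acetylated histones in spermatids, had 28, 16 and 14 tags in Aid+/+ clones 1, 3 and 4 and 27, 26, 16 and 29 in the Aid-/- clones. RF8 and B6 ES cells had 21 and 103, and MEFs 210, 173 and 164. Slc25a31, the ADP/ATP carrier of sperm mitochondria (Ant4), had 191, 47, 88 and 87 in the Aid+/+ clones and 153, 140, 59 and 149 in the Aid-/- clones. RF8 and B6 ES cells had 35 and 295 and MEFs 524, 419 and 431. Slc25a31 was one of 3 members with a peak in all 8 iPS clones, with Dazl and Sycp1, and Brdt was not, since Aid+/+ clone 2 lacked it.

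**Figure D2:**
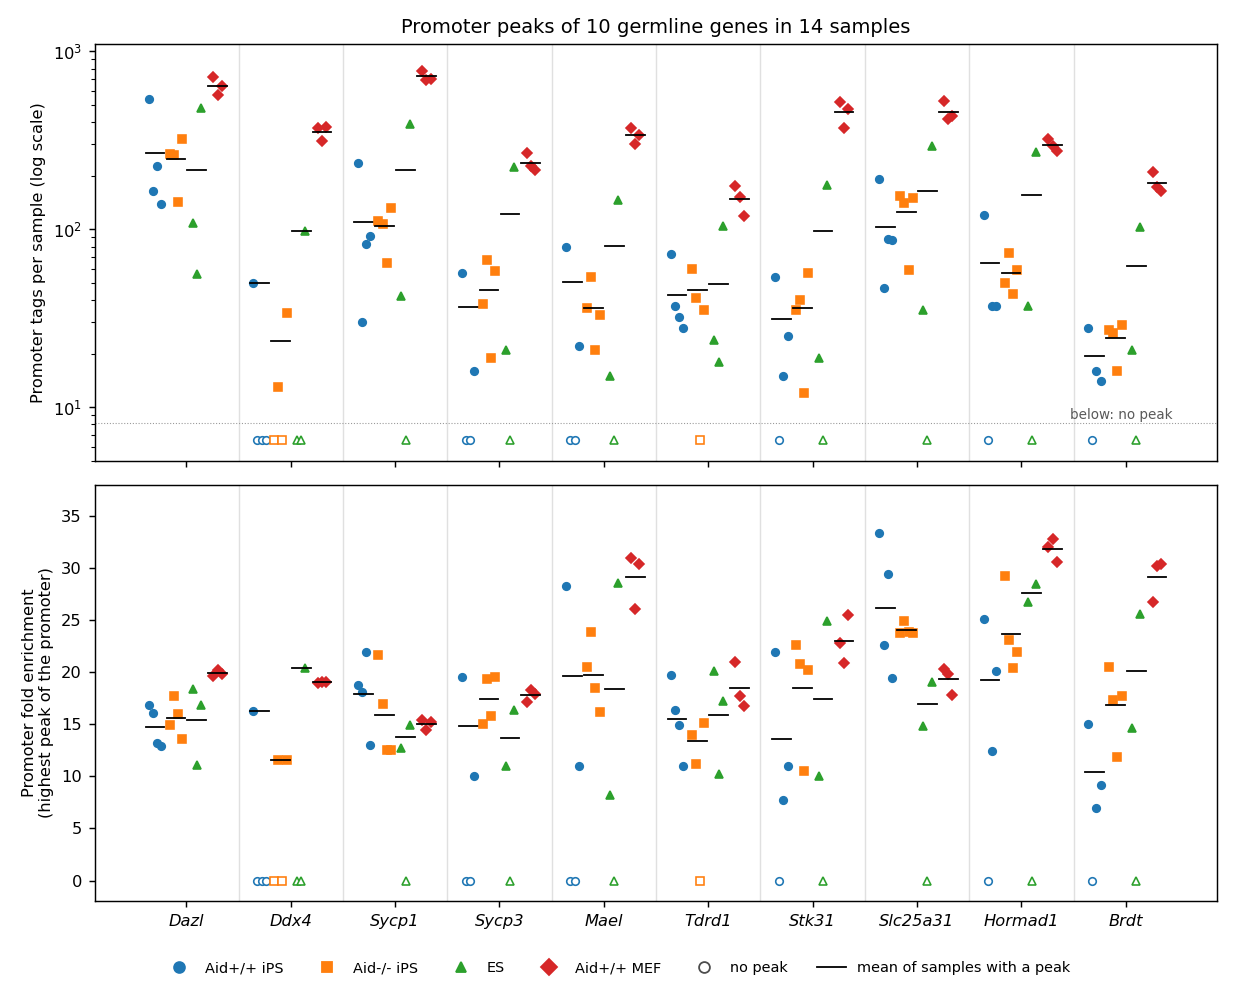
Promoter tags and MACS fold enrichment of each of the 10 germline genes, one point per sample and colours for the groups, with open symbols for samples without a peak and black lines for the mean of the samples with one. In tags the MEF points lie above every iPS clone at 10 of 10 genes; in fold enrichment they overlap the Aid+/+ iPS points at Slc25a31, Sycp1, Sycp3, Tdrd1, Mael and Stk31.

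Group means were 642 ± 75.5 tags (SD, n = 3) for Dazl in MEFs against 267 ± 184 (SD, n = 4) in Aid+/+ iPS cells, and 723 ± 48.9 against 110 ± 87.7 for Sycp1. Tags of every MEF culture lay above those of every Aid+/+ clone at 10 of 10 promoters, with no peak taken as 0, where 11.3% of 4061 genes with a promoter peak in either group did so. In normalised tags it was 9 of 10, all but Dazl, against 9.85%. Against the Aid-/- clones it was 10 of 10 in tags (11.1% of genes) and in normalised tags (7.66%). Against ES cells it was 9 in tags, not Sycp3 (8.57%), and 7 in normalised tags, not Sycp3, Tdrd1 or Hormad1 (7.16%). Within the one run that held MEF culture 1, Aid-/- clone 3 and the ES lines, MEF culture 1 had more tags than each of the other 4 samples at 10 of 10 promoters (16.7% of 3715 genes), and more normalised tags at 8, not Sycp3 or Hormad1 (12.8%).

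Tested with edgeR's quasi-likelihood test on the tags of merged regions that had a peak in every Aid+/+ clone and every MEF culture, 3 of the 10 promoters could be compared, and the tags of all 3 rose in MEFs. The log2 change, MEF minus Aid+/+ iPS, was 2.07 (SE 0.28, adjusted p = 8.18e-05) for Dazl (chr17:50432283-50433894), 2.89 (SE 0.29, adjusted p = 5.24e-06) for Slc25a31 (chr3:40512135-40513518) and 3.48 (SE 0.40, adjusted p = 1.49e-05) for Sycp1 (chr3:102738982-102740557). Of 22987 regions, 23.7% were called higher and 19.6% lower in MEFs, and the median change of all regions was -0.05. With filtered tags in place of TMM scaling that median was -1.30 and 6.84% rather than 54.8% of calls were higher, while the 3 promoters stayed higher.

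A second fit took every promoter window with a peak in at least 1 of the 7 samples, so that all 10 promoters entered. A sample without a peak there was given the lowest tags of any of its peaks, 12 to 16, so changes of promoters with missing peaks rest in part on that value. All 10 promoters were called higher in MEFs, where 43.2% of the 4061 promoters were. The log2 change was 4.84 (SE 0.44) for Stk31, 4.81 (SE 0.43) for Ddx4, 4.21 (SE 0.49) for Mael and 4.07 (SE 0.30) for Brdt. In this fit their mean tags in Aid+/+ clones were 26.8, 22.0, 31.8 and 17.8, and that of Sycp3 was 24.8. Sycp3 changed by 4.03, Sycp1 by 3.49, Hormad1 by 3.31, Slc25a31 by 2.89, Tdrd1 by 2.53 and Dazl by 2.08. The median of the 10 was 3.76 and that of all promoters 0.65, and the adjusted p-values ran from 1.43e-07 to 0.000549. For Tdrd1 the change sets a peak at the 5′ end in MEFs against one further inside the gene. All 10 were called with each sample left out in turn. In those fits the promoters called higher numbered from 766 of 3941 (without MEF culture 3) to 1788 of 4006 (without MEF culture 1). With filtered tags as library size 9 were called higher, where 349 of 4061 promoters were called higher and 1253 lower. The median of the 10 was then 2.50 and that of all promoters -0.61, and Dazl changed by 0.79 (edgeR adjusted p = 0.0697).

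Fold enrichment, the ratio of a peak to the local background that MACS estimated, did not follow the summed tags at each gene. For Brdt it was 15.01, 6.98 and 9.16 in Aid+/+ clones 1, 3 and 4 and 26.78, 30.21 and 30.4 in MEFs. For Slc25a31 it was 33.39, 22.56, 29.39 and 19.45 in the Aid+/+ clones and 20.34, 19.79 and 17.77 in MEFs, where the mean tags were 458 against 103. Sycp1 had 18.73, 18.13, 21.95 and 13 against 15.37, 14.49 and 15.22. In limma on log2 fold enrichment of the shared regions, Slc25a31 changed by -0.41 (adjusted p = 0.167), Sycp1 by -0.23 (adjusted p = 0.41) and Dazl by 0.44 (adjusted p = 0.0879), so none of the 3 promoter calls was kept on that scale. With no input control, the background was estimated from the same sample's own tags. The part of the background in these values was not tested.

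**Figure D3:**
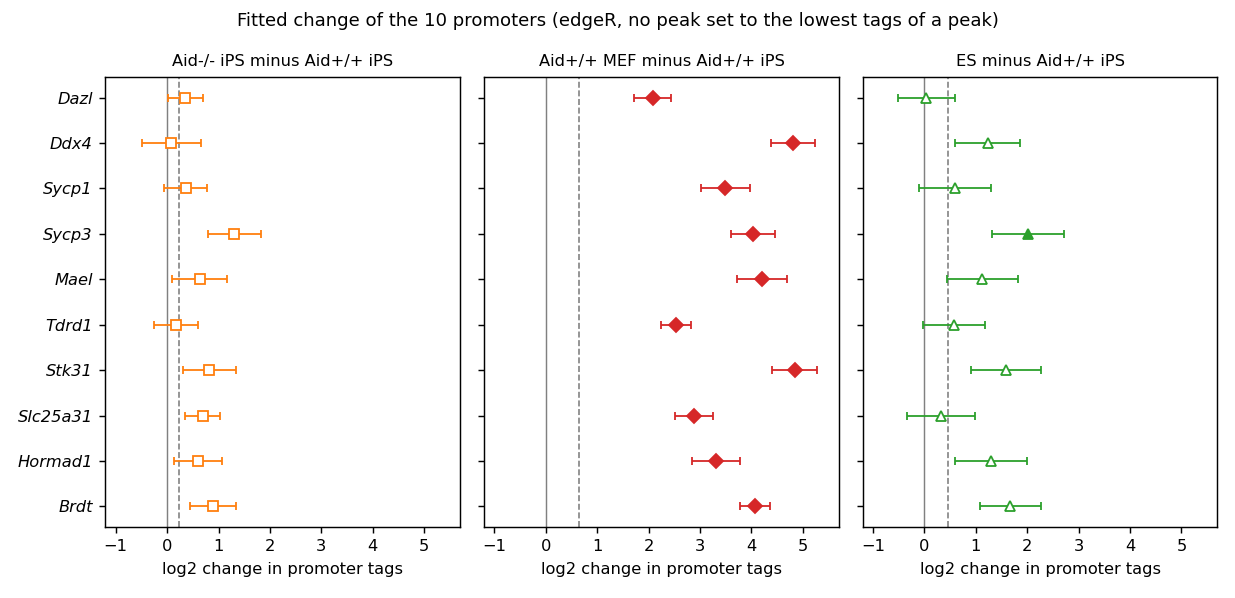
Log2 change in promoter tags of the 10 germline genes for Aid-/- iPS, ES and MEF samples, each minus Aid+/+ iPS, with bars for the standard error, filled symbols for an adjusted p under 0.05 and a dashed line at the median of all promoters in the same fit. In MEFs the changes run from 2.08 to 4.84, against 0.08 to 1.31 in Aid-/- clones and 0.04 to 2.01 in ES cells.

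By the rule that a promoter has a peak in every sample of 1 group and in none of the other, no member differed between Aid+/+ iPS cells and MEFs, because each of the 10 had a peak in at least 1 Aid+/+ clone. Of the 4061 genes with a promoter peak in either group 11.8% were called by this rule. Ddx4 came nearest, with a peak in 1 of 4 Aid+/+ clones and 3 of 3 MEF cultures (two-sided Fisher's exact test, p = 0.143, n = 4 and 3). The smallest p this design allows is 0.0286, and after Benjamini-Hochberg adjustment over those 4061 genes the lowest was 0.242. Without Aid+/+ clone 1 the rule called Ddx4 alone, and with the same number of peaks kept in every sample it called 4 members. Neither setting was counted over all genes, and the equal number dropped more peaks from each iPS clone than from each MEF culture.

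Promoter peaks of the Aid-/- clones did not differ from those of the Aid+/+ clones at any member by the tests made here. More of the promoters had a peak in every clone, 8 against 4, but tags of the genotypes overlapped at 10 of 10 genes, where 0.148% of 4718 genes had more tags in every Aid-/- clone than in any Aid+/+ clone. In normalised tags 9 overlapped and Brdt was higher in every Aid-/- clone (0.848% of genes), with 2.53, 2.63, 2.4 and 2.53 in the Aid-/- clones against 1.76, 1.25 and 1.45 in Aid+/+ clones 1, 3 and 4. The presence rule called no member (0.127% of 4718 genes). Mael and Sycp3, with a peak in 2 of 4 and 4 of 4 clones, had the lowest p (two-sided Fisher's exact test, p = 0.429, n = 4 and 4), where the smallest possible is 0.0286 and the lowest adjusted p over those 4718 genes was 1.0.

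In the edgeR fit of regions with a peak in all 8 clones, the log2 change of tags, Aid-/- minus Aid+/+, was 0.35 (SE 0.31) for Dazl, 0.36 (SE 0.38) for Sycp1 and 0.70 (SE 0.31, unadjusted p = 0.0401) for Slc25a31, each with an adjusted p of 1.0. Of 49923 regions 1 was called (0.002%), which was lower in Aid-/- clones, 1781 had an unadjusted p under 0.05, and DESeq2 called 24. In the fit of all promoters with a peak in any clone (no peak set to the lowest tags), the changes of the 10 were between 0.08 (Ddx4) and 1.31 (Sycp3, SE 0.51, adjusted p = 0.397). None was called, against 0.0424% of 4718 promoters. The median of the 10 was 0.61 and that of all promoters 0.24. Genotype was nearly the same split as these header groups, and the 2 cannot be fully told apart. Within the run that held Aid+/+ clone 1 and Aid-/- clones 1, 2 and 4, the changes ran from -0.90 to 0.42, with 4 above and 6 below 0, a median of -0.36 against 0.27 over all promoters, and a lowest adjusted p of 0.847. There the Aid+/+ side is 1 clone, taken to vary like the others. Without that clone the median over the other 7 was 1.12, with no member called, where 0.154% of all promoters were.

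The 3 ES lines spanned a wide range at these promoters. B6 ES cells had a peak at all 10 promoters with 98 to 481 tags, RF8 at 9 (all but Ddx4) with 15 to 108, and MG1.19 at Dazl (56 tags) and Tdrd1 (18 tags) alone. Tags of ES lines and Aid+/+ clones overlapped at 10 of 10 genes, also in normalised tags, where 2.15% and 4.2% of 4380 genes did not. The presence rule called no member (0.525% of 4380 genes), and the lowest Fisher's exact p of a member was 0.429 (two-sided, n = 4 and 3). Among regions with a peak in every sample of both groups, the log2 change, ES minus Aid+/+ iPS, was 0.05 (SE 0.45, edgeR adjusted p = 0.973) for Dazl and 0.45 (SE 0.30, edgeR adjusted p = 0.634) for the intron peak of Tdrd1. Of 23779 regions 0.0168% were called (4 regions, 319 by DESeq2).

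With all promoters that had a peak in any of the 7 samples (no peak set to the lowest tags), the changes in ES cells were 0.04 to 2.01 with a median of 1.18 against 0.46 over all promoters. Sycp3 was called higher (2.01, SE 0.70, edgeR adjusted p = 0.0469) and Brdt was not (1.67, SE 0.59, edgeR adjusted p = 0.0507), where 16.5% of 4380 promoters were called higher. The Sycp3 call was lost with filtered tags as library size (1.64, SE 0.82, edgeR adjusted p = 0.666), where 0.205% of all promoters were called. Without B6 ES cells no member was called (10.6% of all promoters) and the median of the 10 was -0.06. Without MG1.19 1 member was called (1.07% of all promoters), without RF8 2 (15.1%) and without Aid+/+ clone 1 3 (Sycp3, Ddx4 and Brdt, 19.2%). Without Aid+/+ clone 2, 3 or 4 none was, with 0.46%, 0.185% and 23.2% of all promoters called. These shares count calls in either direction, and the member counts moved with them only in part.

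Promoter peaks were taken by their overlap with the 1 kb on either side of the 5′ end, so summits near it follow in part from that choice. Positions over the promoter peaks of all genes are not given here. Over the 118 sample and gene pairs with a promoter peak, the median distance of the summit from the 5′ end was 46 bp downstream, with a range from -409 bp (upstream) to 1057 bp, and in 109 of them the peak with the most tags covered the 5′ end. The summit lay upstream in 46, in the untranslated part of an exon in 20, in a coding exon in 23 and in an intron in 29. Dazl peaks had summits at -409 to 8 bp and Ddx4 peaks at -161 to -56 bp. Sycp1 peaks covered the 5′ end in each of the 13 samples that had one, but the summit moved, from -13 to 76 bp in Aid+/+ clones, 3 to 421 bp in Aid-/- clones and 62 to 115 bp in ES cells to 514 to 583 bp in MEFs. Summits of all Aid+/+ clones lay on one side of those of all MEF cultures in Sycp1 and Tdrd1, 2 of the 4 members with a peak in all 7 samples, against 13.5% of 563 genes. Stk31, with a peak in 3 Aid+/+ clones, had summits at 239 to 306 bp there and at -154 to -109 bp in MEFs.

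**Figure D4:**
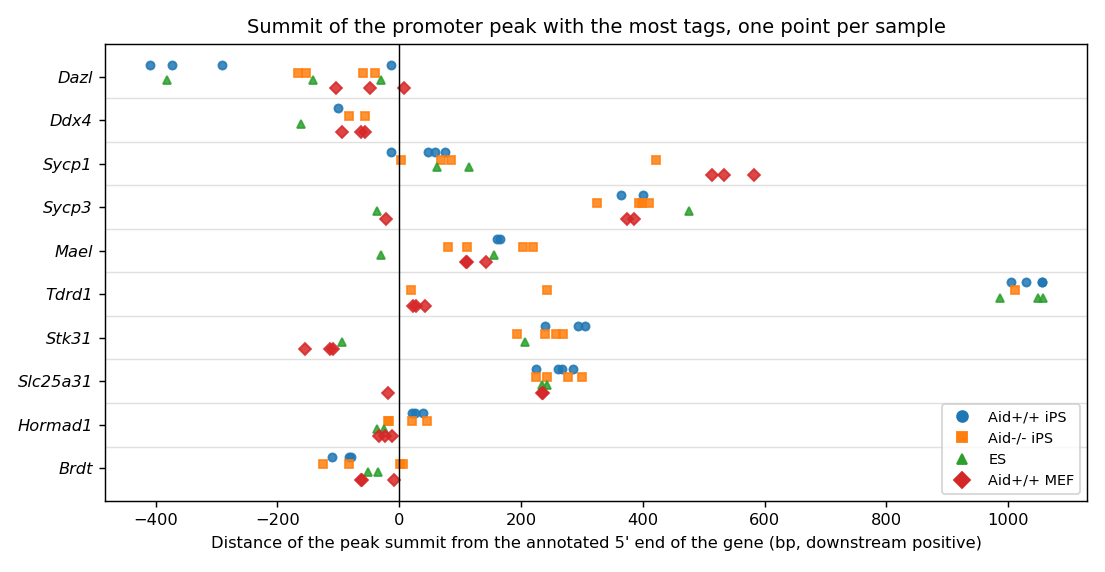
Distance in bp of the summit of the promoter peak with the most tags from the annotated 5′ end, along the gene's strand, for each germline gene and sample, with colours for the groups. Tdrd1 summits sit at 1005 to 1056 bp in Aid+/+ iPS clones and at 23 to 43 bp in MEFs, and Sycp1 summits at -13 to 76 bp and 514 to 583 bp.

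Peaks inside the genes were counted apart from those at the 5′ ends. Over all gene bodies MEFs held fewer peaks than iPS clones, 16.3 to 28.5 per Mb against 33.1 to 57.1. Dazl, Mael, Sycp3, Hormad1 and Slc25a31 had no gene body peak in any of the 14 samples, and the other 5 genes had 18 stretches with one. In Tdrd1, 7 stretches had a peak in at least 1 sample, with a mean of 4.0 ± 2.16 body peaks (SD, n = 4) in Aid+/+ clones, 4.0 ± 0.816 (SD, n = 4) in Aid-/- clones and 2.33 ± 2.31 (SD, n = 3) in ES cells, while each MEF culture had 1, the intron stretch 21.9 kb from the 5′ end that all 14 samples shared. In Brdt, 6 stretches had a peak in iPS or ES samples, with a mean of 3.0 ± 1.83 (SD, n = 4) in Aid+/+ clones and 2.75 ± 1.89 (SD, n = 4) in Aid-/- clones, and MEFs had none. Sycp1 went the other way. Each MEF culture had peaks at 3 intron stretches, 49.2, 69.7 and 103 kb from the 5′ end, and Aid+/+ clones had 2, 1, 1 and 1. The stretch at 103 kb had a peak in 0 of 4 Aid+/+ clones, 1 of 4 Aid-/- clones, 2 of 3 ES lines and 3 of 3 MEF cultures. Peaks at an intron stretch of Ddx4, 34.8 kb inside, were found in all 8 iPS clones but only in 1 ES line and 1 MEF culture. Those at 12.7 kb in Stk31 were found in 13 samples, all but 1 ES line.

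Of these, 3 stretches had a peak in every Aid+/+ clone and MEF culture and could be tested. All 3 lay in introns, of Tdrd1 (chr19:56921207-56923274), Stk31 (chr6:49357855-49358667) and Sycp1 (chr3:102690426-102691320). The tags of Tdrd1 at 21.9 kb fell by 1.59 (SE 0.41, edgeR adjusted p = 0.00794) and those of Stk31 at 12.7 kb by 1.58 (SE 0.58, edgeR adjusted p = 0.0416) on the log2 scale in MEFs, and those of Sycp1 at 49.2 kb rose by 1.24 (SE 0.29, edgeR adjusted p = 0.00414). The Stk31 body call was lost with DESeq2 (adjusted p = 0.0862) and without Aid+/+ clone 3 or 4 or MEF culture 1 or 3 (edgeR adjusted p = 0.0541, 0.124, 0.167 and 0.173). The Tdrd1 body call was lost with the length offset (edgeR adjusted p = 0.177) and without MEF culture 3 (edgeR adjusted p = 0.0749). The promoter windows of all 10 genes were called higher in MEFs in the second fit, so this held for both genes with fewer body tags too. The Sycp1 body change was -0.02 with filtered tags and -0.01 in limma on fold enrichment, so its direction depended on the scale. Between genotypes the changes were -0.59 (Ddx4), -0.33 (Tdrd1), -0.24 (Sycp1) and 0.17 (Stk31), each with an edgeR adjusted p of 1.0, and between ES and Aid+/+ iPS cells -0.53 (Tdrd1) and 0.66 (Sycp1), with edgeR adjusted p-values of 0.659 and 0.553.

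Over the 445 kb of gene body in the 10 genes there were 15.7 to 31.5 peaks per Mb in iPS clones, against 33.1 to 57.1 over all gene bodies. In ES cells it was 4.49 to 29.2 against 14 to 54.4 and in MEFs 11.2 to 13.5 against 16.3 to 28.5. In each of the 14 samples the bodies of the 10 genes thus held fewer peaks per Mb than all gene bodies. MEFs held fewer per Mb than every iPS clone, both in the 10 genes and over all gene bodies.

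**Figure D5:**
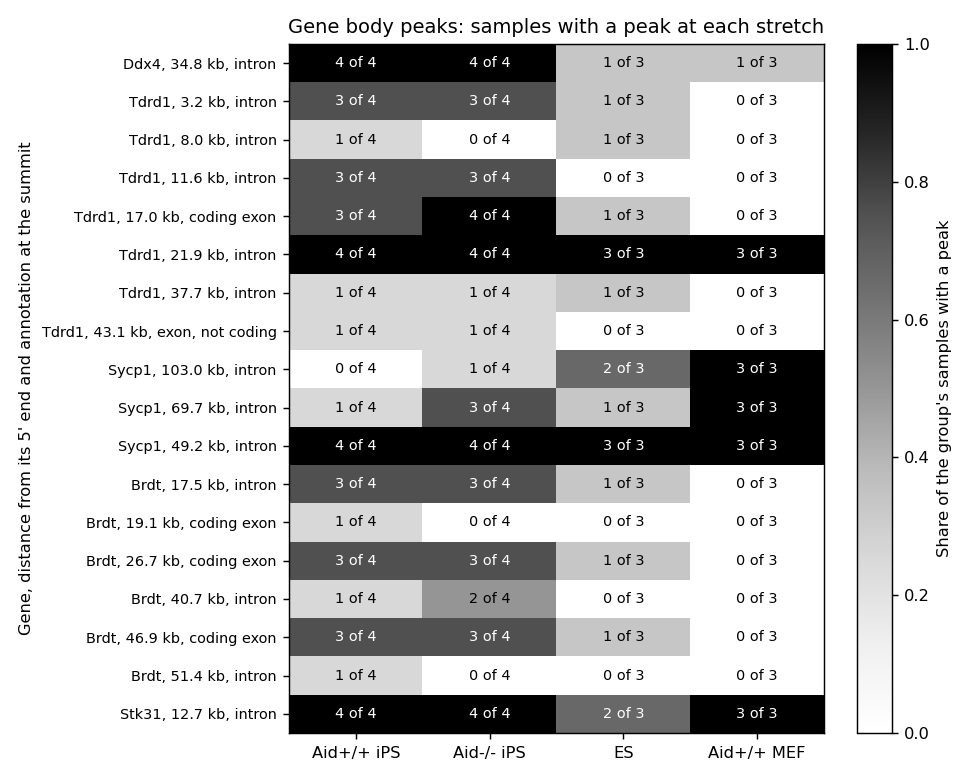
Share of each group's samples with a peak at each of the 18 gene body stretches, named by gene and distance in kb from the 5′ end on the y axis, with the groups on the x axis and the share as colour. Tdrd1 keeps 1 of 7 stretches in MEFs and Brdt none of 6, while the Sycp1 stretch at 103 kb is found in 3 of 3 MEF cultures and no Aid+/+ iPS clone. Over all gene bodies, peaks per Mb were also fewer in MEFs than in iPS clones.

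The lists set beside the 10 genes were further piRNA pathway genes (14 of 16 found in the annotation), further meiosis genes (25 of 26) and housekeeping genes (11 of 11), 7 of which had CpG-rich promoters. A promoter peak in every sample was found for 5 piRNA genes among the Aid+/+ clones, 6 among the Aid-/- clones, 1 among the ES lines and 8 among the MEFs, for 6, 11, 0 and 11 meiosis genes, and for no housekeeping gene in any group. Every MEF culture had more promoter tags than every Aid+/+ clone at 6 of 14 piRNA and 8 of 25 meiosis genes, and at none of the housekeeping genes. Among these, 1 piRNA, 8 meiosis and 9 housekeeping genes had no promoter peak in any sample and could not be counted as higher. The count is 10 of 10 for the germline genes examined here, which all had peaks. Of all genes with a promoter peak in either group 11.3% were counted, and no test between lists was made. An E-box was found upstream of 5 of 14, 4 of 25 and 0 of 11. The presence rule called Rnf17, a Tudor-domain piRNA factor, with 42, 43 and 27 tags in MEFs, 20 in B6 ES cells and no peak in iPS clones. It also called Tex14, which keeps the bridges between germ cells open, with 155, 131 and 121 in MEFs, 12 and 13 in Aid-/- clones 1 and 2, 46 in B6 ES cells and no peak in Aid+/+ clones.

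Tdrd9 (14 of 14 samples), Gtsf1 and Mov10l1 (13 each), all of the piRNA pathway, and Syce3, Taf7l and Tex101 (13 each), of the meiosis list, had promoter peaks in the most samples, as did Piwil1 and Tex12 (also 13), which came later by symbol. Tags of Tdrd9 were 162 ± 35.3 (SD, n = 4) in Aid+/+ iPS cells and 129 ± 27.6 (SD, n = 3) in MEFs, and of Tex101 108 ± 28.8 (SD, n = 4) and 61.0 ± 11.4 (SD, n = 3), so being higher in MEFs was not shared by all germline promoters. Tdrd7 had no promoter peak, Piwil4 and Tdrd6 had 1 each, and Dmc1, the meiotic recombinase, Mei4 and Mnd1 had none in any sample. Of the housekeeping genes Ppia had a promoter peak in 9 samples, Pgk1 in MG1.19 and B6 ES cells and the other 9 in no sample.

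Genes whose promoter fold enrichment ran most alike over the 14 samples, with no peak as 0, were sought among 3021 genes with a promoter peak in 3 to 13 samples. For Brdt they were Gm5465 (Spearman's rho 0.966), Sycp2 (0.947) and Adad1 (0.944), and for Hormad1 Sycp2 (0.956), Brdt (0.938) and H2-Q7 (0.925). Ddx4 ran most like Gm9848 (0.95), Boll (0.94) and Foxj1 (0.94). Mael ran most like Zfa (0.96) and Stk31 most like Mael (0.944), and Sycp3 most like Mov10l1 (0.912), D1Pas1 (0.899) and Asz1 (0.852). Slc25a31 (Smap2, 0.908), Sycp1 (Htr2a, 0.846) and Tdrd1 (Tomm20, 0.819) were less closely matched, and Dazl, with a peak in every sample, was not entered. Between the members rho ran from -0.143 (Slc25a31 and Dazl) to 0.944 (Stk31 and Mael). These values share the 14 libraries with their depth and number of peaks and describe these samples only. Sycp2, the partner of Sycp3 in the lateral element, had promoter tags of 365 ± 33.9 (SD, n = 3) in MEFs and 31.0 ± 16.8 in the 3 Aid+/+ clones with a peak.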

How the data were processed

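MBD-seq was made from genomic DNA sheared to 100 to 300 bp and enriched with a methylated DNA kit. Per the labels and file headers, the authors processed reads with CASAVA 1.8.1, mapped them with BWA 0.5.9rc1 to mm9 and called peaks in each sample with MACS (1.4.1 in 9 samples, 1.4.0rc2 in 5), without an input control, at a p-value cutoff of 1e-05. The deposited values used here are the count of tags in each peak as MACS gave it, the fold enrichment (a ratio to the local background) and a score, a multiple of −log10 of the p-value, that was used to rank peaks. Depth was taken from the headers and is unequal between samples, so a missing peak means only that none passed the cutoff.

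Peaks were set on the build 37 annotation. Tags of overlapping peaks were summed in regions merged across samples and compared with edgeR 4.0.16 (quasi-likelihood, TMM, Benjamini-Hochberg at 0.05 over all regions). The regions needed a peak in every sample compared, which leaves out promoters without one, and the fit of promoters with a peak in any sample was added after seeing the data. Alternatives were other library sizes, DESeq2 1.42.0, limma 3.58.1 on log2 fold enrichment, a peak length offset, other windows and stricter peaks, and each sample left out in turn. The scripts were tested on simulated data. The iPS and ES replicate numbers were given in accession order and pair no samples.

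The members, lists and tests were chosen with earlier results of these data known. All 10 members were named whatever their values. Of each other list, genes called by the presence rule were named, and otherwise the 3 with a promoter peak in the most and the 3 in the fewest samples. The values of the targeted gene are not reported here.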

Additional observations from a re-analysis of the deposited data

Results flagged for a closer look

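Among 44 groups of 4 iPS clones checked for the values of the 10 germline genes, 4 had a clone whose gap to the nearest other, divided by the range of the group, was above Dixon's 95% critical value for 4 samples. Chance alone passes that value in about 1 in 20 groups. Slc25a31, the ADP/ATP carrier of sperm, had promoter tags of 153, 140, 59 and 149 in the Aid-/- clones, with clone 3 low and a ratio of 0.862. Clone 3 was also the one from another header group (processing run) and had the shallowest library, 6.65 M filtered tags, and their part in the value was not tested. Fold enrichment of the same promoter was 23.76, 24.87, 23.85 and 23.73 in those clones, with clone 2 apart and a ratio of 0.895. The Sycp1 promoter peak was 1193, 1213, 1190 and 1514 bp long in the Aid-/- clones, longest in clone 4, with a ratio of 0.929. Gene body peaks of Sycp1 in the Aid+/+ clones were 2, 1, 1 and 1, which gives a ratio of 1.0 by construction.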

How the results depend on the processing

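The replicate numbers were given in accession order, so they were not used to pair samples. One clone series, 979, occurs in both genotypes, so a genotype change blocked on clone series rests on 979B1 and 979B3 against 979F1 and 979F3. These Aid+/+ clones were in the second processing run and these Aid-/- clones in the first, so genotype and run cannot be told apart there. The blocked fit called 0 regions and moved the median change of the 3 member promoters tested from 0.36 to 0.84. Of the values of single regions, 460 kept their direction and side of the threshold, 49 reversed, 15 were no longer called and 3 became called. Of the group counts, 114 stayed within 1.5 times of the value reported and 43 did not.

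Kept to an equal number of peaks, promoters with a peak in every sample were 1 in Aid+/+ iPS, 4 in Aid-/- iPS and 1 in ES cells, and the presence rule called 4 members in MEFs. In ES cells the count was also 1 with a 0.5 kb window, a peak p-value of at most 1e-10 or the summit inside the window. These counts were made for the members only, with no share over all genes. Regions called between genotypes were 12 with filtered tags, 24 with DESeq2, 5 within 1 processing run and 0 with limma, the length offset or promoter windows. In MEFs they were 19431 with filtered tags, 6575 with the length offset and 291 with promoter windows, where fewer features were tested. In ES cells they were 319 with DESeq2, 7 with the length offset, 1 with total tags and 0 with filtered tags, limma or promoter windows, and the fit of promoters with any peak called 0 members with filtered tags.

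Leaving out each sample in turn, promoters with a peak in every sample were 4 to 7 in Aid+/+ iPS and 2 to 9 in ES cells, the presence rule called 0 to 1 member in MEFs, regions called were 0 to 66 between genotypes (66 without Aid+/+ clone 1), 7390 to 12001 in MEFs and 0 to 2449 in ES cells (2449 without B6 ES cells), and members called in ES cells were 0 to 3.

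Log2 changes that turned sign were as follows between genotypes. Within 1 processing run Dazl was -0.46, Sycp1 -0.54 and the Tdrd1 body 0.67, and in the fit of promoters with any peak Mael was -0.48, Ddx4 -0.90, Dazl -0.47, Tdrd1 -0.24, Hormad1 -0.51 and Sycp1 -0.55. The length offset gave 0.15 for the Tdrd1 body. With limma Slc25a31 was -0.09, Sycp1 -0.19, the Sycp1 body 0.03 and the Stk31 body -0.11, and with the clone block these bodies were 0.08 and -0.20. In MEFs limma gave -0.41 for Slc25a31, -0.23 for Sycp1 and -0.01 for the Sycp1 body, which was -0.02 with filtered tags. In ES cells Dazl was -0.40 and Tdrd1 -0.16 with filtered tags, Dazl -0.08 with total tags, the Sycp1 body -0.02 with filtered tags and the Tdrd1 body 0.09 with limma and 0.40 with the offset. With filtered tags in the fit of promoters with any peak, Dazl was -0.41 and Slc25a31 -0.04.

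Leaving out a sample, the ranges that crossed 0 were -0.44 to 0.06 (Sycp1 body) and -0.23 to 0.59 (Stk31 body) between genotypes and -0.71 to 0.52 (Dazl) in ES cells. In the fit of promoters with any peak they were -0.46 to 0.80 (Ddx4, also -0.12, -0.09 and -0.06) and -0.10 to 0.50 (Tdrd1) between genotypes, and in ES cells -0.17 to 1.89 (Mael), -0.71 to 0.48 (Dazl), -0.04 to 0.83 (Tdrd1), -1.17 to 0.80 (Slc25a31), -0.08 to 1.91 (Hormad1) and -1.06 to 1.10 (Sycp1), the low ends in ES cells coming without B6 ES cells. The cause of these turns was not tested.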

Other observations

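The share of promoters with an E-box was also counted for the other genes by their peaks in MEFs. Leaving out the 10 germline genes, CACGTG lay within 250 bases upstream in 34 of 289 CpG-rich promoters with a peak in every MEF culture (11.8%) and in 810 of 9051 with none (8.95%). Among intermediate promoters it lay in 31 of 506 (6.13%) and 230 of 3618 (6.36%), and over all promoters in 77 of 996 (7.73%) and 1271 of 20084 (6.33%). These shares are counts of letters, with no test made.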
